A study of Gossypium barbadense and Gossypium hirsutum with 8 samples.

Results

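Actin control probe sets designed from 2 cotton species were examined in elongating cotton fibre on Affymetrix arrays. They were found by their array identifiers, which start with AFFX-Ghi-actin (Gossypium hirsutum) or AFFX-Gra-actin (G. raimondii), and they number 6 among 24132 probe sets: one each for the 5′ end, the middle (M) and the 3′ end of the transcript in each species. As a group they were chosen by measured signals: 2 of the G. raimondii sets were known to be far higher in the low-yield parent than in the low-yield lines. Differences between the parents and the lines are therefore given as descriptions with no test. The contrast between the yield groups of lines was not itself used in that choice and was tested. The arrays of the low-yield lines entered both, so this test is not fully independent of the choice. The 8 arrays held the low-yield parent Giza75 (G. barbadense, 1 array), the high-yield parent SG747 (G. hirsutum, 1 array), 3 high-yield and 3 low-yield backcross inbred lines (BILs) from a population between those species, all fibre at 10 days post anthesis. By the sample labels the high-yield lines 1, 2 and 3 are NMGA144, NMGA017 and NMGA026, and the low-yield lines are NMGA066, NMGA095 and NMGA023; the design text exchanges the names of high-yield lines 1 and 3, both in the same group. The labels give the organism of the high-yield lines as G. hirsutum and that of the low-yield lines as G. barbadense, although all come from the same interspecific population. Because a line had a single array, the spread inside a yield group joins differences between lines with differences between preparations and arrays. The identifiers carry no gene names beyond the controls, so the purity of the fibre was not checked against markers of fibre or ovule.

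Actin is the subunit of the microfilaments that carry organelles and vesicles through the long fibre cell, and the filaments are needed for fibre elongation. Plants hold many actin genes with closely similar coding sequences, so a probe set may read several of them. G. hirsutum and G. barbadense are tetraploids with an A and a D subgenome, and G. raimondii is a diploid close to the donor of the D subgenome. Affymetrix control sets for the 5′ end, middle and 3′ end of one transcript are used to follow RNA integrity, because labelling starts at the 3′ end. In the array's naming the suffix _s_at marks probes shared by several transcripts and _x_at marks sets with probes that may match other sequences. All 6 actin sets carry one of these suffixes, so neither species' sets are specific to 1 gene.

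The arrays were not at a common brightness. Their median signals lay between 13.2 and 36.3, and the means after trimming 2% at each end lay between 91.1 and 199. The median log2 difference over 14423 tested probe sets was -0.24 for the low-yield parent minus the 6 lines, 0.24 for the high-yield parent minus the lines, -0.42 for the low-yield minus the high-yield parent and -0.28 for the high-yield minus the low-yield lines. After quantile normalization these medians were close to 0 (-0.01 for the low-yield parent minus the lines and 0.03 for the high-yield minus the low-yield lines). A plain ratio of 2 probe sets on the same array is free of any common scale, and with the pseudocount it is nearly so. Its absolute size mixes probe response with transcript level, so only its differences between arrays are read below.

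All 3 G. raimondii actin sets were higher in the low-yield parent than on every other array. The middle set (AFFX-Gra-actin-M_s_at) reached 965 in the low-yield parent. It reached 271 in the high-yield parent, 118, 260 and 136 in high-yield lines 1, 2 and 3, and 206, 178 and 270 in low-yield lines 1, 2 and 3. The low-yield parent therefore stood apart from all 7 other arrays, while the high-yield parent lay just above the highest line. The 3′ set (AFFX-Gra-actin-3_x_at) had 615 in the low-yield parent and 142 in the high-yield parent. In the lines it had 133, 134 and 118 (high-yield 1, 2 and 3) and 203, 157 and 233 (low-yield 1, 2 and 3). Here the high-yield parent lay inside the range of the lines, above the 3 high-yield and below the 3 low-yield lines. The 5′ set (AFFX-Gra-actin-5_x_at) had 112 in the low-yield parent and 43.9 in the high-yield parent, against 16.8, 28.7 and 32.3 in high-yield lines 1, 2 and 3 and 34.9, 38.8 and 39.9 in low-yield lines 1, 2 and 3. Both parents were above all 6 lines at this end.

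**Figure D1:**
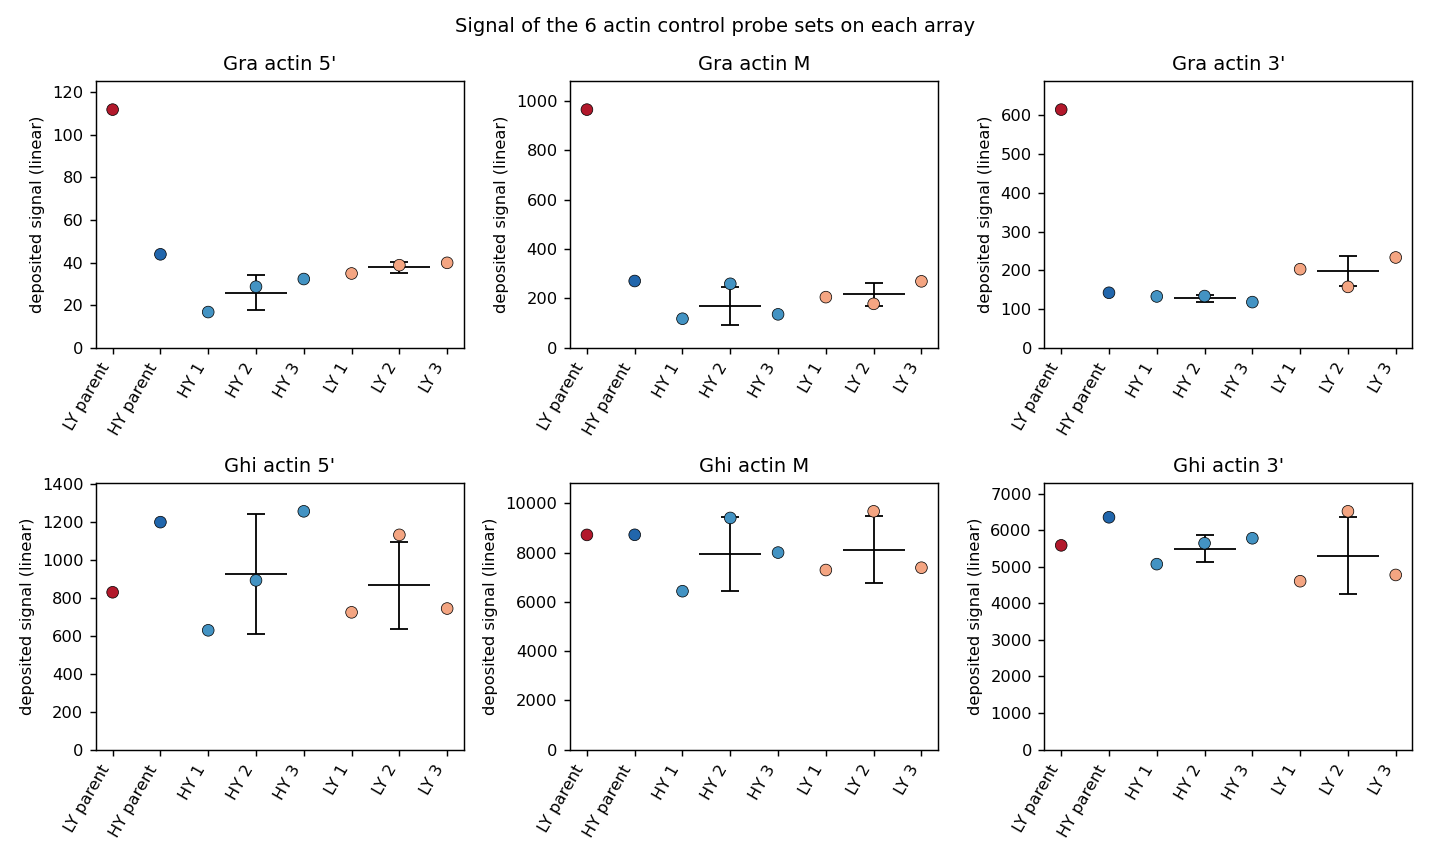
Deposited signal (linear scale from 0) of each actin control probe set on the 8 arrays, with Gra sets in the upper and Ghi sets in the lower row; points are single arrays (low-yield parent, high-yield parent, high-yield lines, low-yield lines) and black bars are the mean ± SD of the 3 lines of a yield group. The low-yield parent is the highest array in each Gra panel (112, 965 and 615 for 5′, M and 3′) and lies among the other arrays in each Ghi panel.

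The G. hirsutum actin sets showed no such separation in deposited signal. The middle set (AFFX-Ghi-actin-M_x_at) had 8720 in the low-yield parent and 8724 in the high-yield parent, with 6433, 9409 and 8002 in high-yield lines 1, 2 and 3 and 7293, 9678 and 7387 in low-yield lines 1, 2 and 3. The parents were nearly equal and lay inside the range of the lines. The 3′ set (AFFX-Ghi-actin-3_x_at) had 5587 in the low-yield parent and 6355 in the high-yield parent, against 5073, 5645 and 5781 in high-yield lines 1, 2 and 3 and 4606, 6518 and 4777 in low-yield lines 1, 2 and 3. The 5′ set (AFFX-Ghi-actin-5_x_at) had 828.6 in the low-yield parent and 1198 in the high-yield parent, against 628, 891 and 1255 in high-yield lines 1, 2 and 3 and 723, 1131 and 743 in low-yield lines 1, 2 and 3. Low-yield line 2 and high-yield line 3 were among the higher arrays for the 3′ and 5′ sets, and high-yield line 1 had the lowest 5′ and middle signals. All 6 sets passed the filter on low signals.

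Across the 8 arrays the highest signal was 1.50-fold the lowest for the Ghi middle set, 1.42-fold for the Ghi 3′ set and 1.997-fold for the Ghi 5′ set. For the Gra sets the same figure was 8.18-fold (M), 5.21-fold (3′) and 6.66-fold (5′). Among the 6 lines alone it was 2.28-fold (M), 1.98-fold (3′) and 2.38-fold (5′), so most of the range of the Gra sets came from the low-yield parent.

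On the log2(signal + 16) scale, the low-yield parent was above the mean of the 6 lines by 2.28 for Gra M, where the SD of the 6 lines was 0.45. For Gra 3′ the difference was 1.85 (SD of the lines 0.35) and for Gra 5′ it was 1.44 (SD 0.28). As a ratio of deposited signals this was 4.96-fold, 3.77-fold and 3.50-fold the mean of the lines. The Ghi sets differed by 0.13 (M), 0.06 (3′) and -0.07 (5′), all within 1 SD of the lines (0.23, 0.19 and 0.38). At least 2-fold above the mean of the lines in the low-yield parent were 3 of the 6 actin sets, where 3.09% of all tested probe sets were (5.67% with quantile normalization). Above all 6 lines were the same 3, where 10.9% of all tested probe sets were (19.2% with quantile normalization). This contrast led to the choice of the sets, so their counts carry no weight beyond description. Over all tested probe sets, 26 had a difference at least as high as Gra M, 53 at least as high as Gra 3′ and 149 at least as high as Gra 5′, each count including the set itself.

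The size of these differences depended on the scale while their direction did not. With quantile normalization they were 2.47 (M), 2.10 (3′) and 1.69 (5′). After scaling to poly-A spikes (bacterial RNAs put in ahead of labelling) they were 1.43, 1.02 and 0.70, so that Gra 5′ was no longer 2-fold higher. With a pseudocount of 64 Gra 5′ was at 0.88, also under 2-fold. The spikes had a geometric mean signal of 417 for the low-yield parent, against 152 to 369 for the lines, and on that scale the Ghi sets of the low-yield parent were below the lines by log2 differences of -0.73 (M), -0.80 (3′) and -0.91 (5′). The part of the spike level in the actin differences was not tested. With median centring the low-yield parent was above all 6 lines for Ghi M, by 0.32 from their mean. This held on 1 of the 7 scales and pseudocounts for Ghi M, and on 0 for Ghi 3′ and Ghi 5′.

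**Figure D2:**
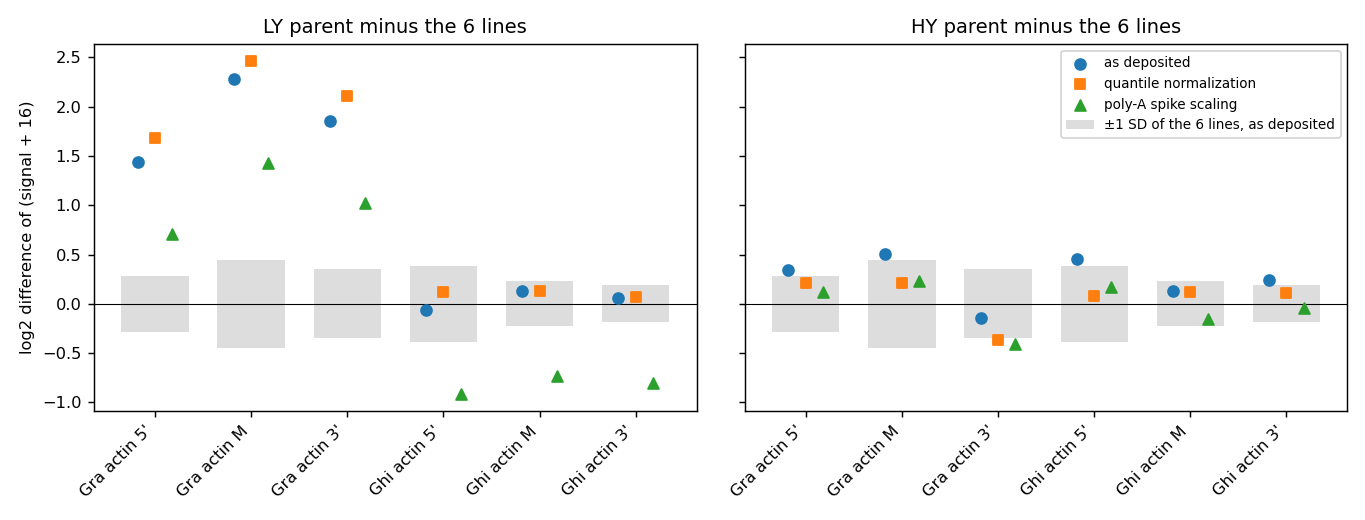
Log2 difference of (signal + 16) between a parent and the mean of the 6 lines for the 6 actin sets (left, low-yield parent; right, high-yield parent), on the deposited values, after quantile normalization and after scaling to the poly-A spikes; grey boxes are ±1 SD of the 6 lines on the deposited values. The Gra sets of the low-yield parent lie between 0.70 and 2.47, above the grey boxes on all 3 scales, while the Ghi sets of that parent lie within the boxes except on the spike scale. The boxes do not show the spread on the other scales. After scaling to the poly-A spikes the lines spread more widely (Gra M from 6.73 to 8.68, against 7.07 to 8.16 on the deposited values).

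On the deposited values the high-yield parent was closer to the lines than the low-yield parent in the Gra sets. It was farther in Ghi 3′ and Ghi 5′, and in Ghi M both parents were 0.13 above the lines. After scaling to the poly-A spikes it was closer in Ghi 3′ (-0.04, against -0.80) and Ghi 5′ (0.17, against -0.91). Its log2 differences from the mean of the lines on the deposited values were 0.50 (Gra M, SD of the lines 0.45), -0.14 (Gra 3′, SD 0.35) and 0.34 (Gra 5′, SD 0.28). In the Ghi sets they were 0.13 (M, SD 0.23), 0.24 (3′, SD 0.19) and 0.46 (5′, SD 0.38). Gra M, Gra 5′, Ghi 3′ and Ghi 5′ were thus more than 1 SD above the lines. None of the 6 sets was 2-fold apart, where 1.58% of all tested probe sets were at least 2-fold above the lines and 1.93% at least 2-fold below. Gra M and Gra 5′ were above all 6 lines in this parent, where 19.6% of all tested probe sets were. The median over all tested probe sets was itself 0.24 in this contrast.

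Set directly against each other, the low-yield parent was above the high-yield parent by log2 differences of 1.77 (Gra M), 1.996 (Gra 3′) and 1.09 (Gra 5′), while the Ghi sets differed by -0.0007 (M), -0.19 (3′) and -0.52 (5′). At least 2-fold above the high-yield parent were the 3 Gra sets, where 4.34% of all tested probe sets were (9.07% with quantile normalization). Gra 5′ was under 2-fold with a pseudocount of 64 (0.70) and after scaling to the hybridization spikes (0.696) or the poly-A spikes (0.59). These values share the low-yield parent's array with the comparison against the lines and are not independent of it. Whether the probes match the transcripts of both parents equally well was not tested, so a higher signal need not mean more transcript.

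In the Gra sets the lines resembled the high-yield parent more than the low-yield parent. On a scale where the high-yield parent is 0 and the low-yield parent 1 (log2 values), the lines lay between -0.62 and -0.0037 for Gra M, between -0.79 and -0.09 for Gra 5′, and between -0.12 and 0.33 for Gra 3′. On the deposited values all 6 lines were thus nearer the high-yield parent for all 3 sets. Among the 626 probe sets at least 2-fold above the high-yield parent in the low-yield parent, 22.2% had all 6 lines nearer the high-yield parent (16.4% of 1308 with quantile normalization). With quantile normalization low-yield line 3 moved to 0.41 for Gra M, 0.39 for Gra 5′ and 0.62 for Gra 3′, nearer the low-yield parent for that set, and the other 5 lines stayed at 0.26 or below for all 3 sets. After scaling to the poly-A spikes, 5 lines (Gra 3′), 4 lines (Gra 5′) and 5 lines (Gra M) were nearer the high-yield parent. The exceptions were low-yield line 1 at 0.90 for Gra 3′ and 0.69 for Gra 5′, low-yield line 2 at 0.58 for Gra 5′ and high-yield line 2 at 0.54 for Gra M.

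The ratio of Gra to Ghi signal, taken at the same position on the same array, was also highest in the low-yield parent at all 3 positions, while the order of the other arrays differed from that of the Gra signals. At the middle it was 11.1% in the low-yield parent and 3.10% in the high-yield parent. The lines had 1.83%, 2.76% and 1.70% (high-yield 1, 2 and 3) and 2.82%, 1.84% and 3.65% (low-yield 1, 2 and 3). At the 3′ end it was 11.01% in the low-yield parent and 2.24% in the high-yield parent, against 2.62%, 2.37% and 2.04% in high-yield lines 1, 2 and 3 and 4.41%, 2.42% and 4.88% in low-yield lines 1, 2 and 3. At the 5′ end it was 13.5% in the low-yield parent and 3.66% in the high-yield parent, against 2.67%, 3.22% and 2.58% in high-yield lines 1, 2 and 3 and 4.83%, 3.43% and 5.37% in low-yield lines 1, 2 and 3. The low-yield parent was 3.03-fold (M), 2.25-fold (3′) and 2.51-fold (5′) the highest line, which was low-yield line 3 at each position. Low-yield line 1 came next at each position. With 1 array per line, neighbours in this order carry no error of their own.

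**Figure D3:**
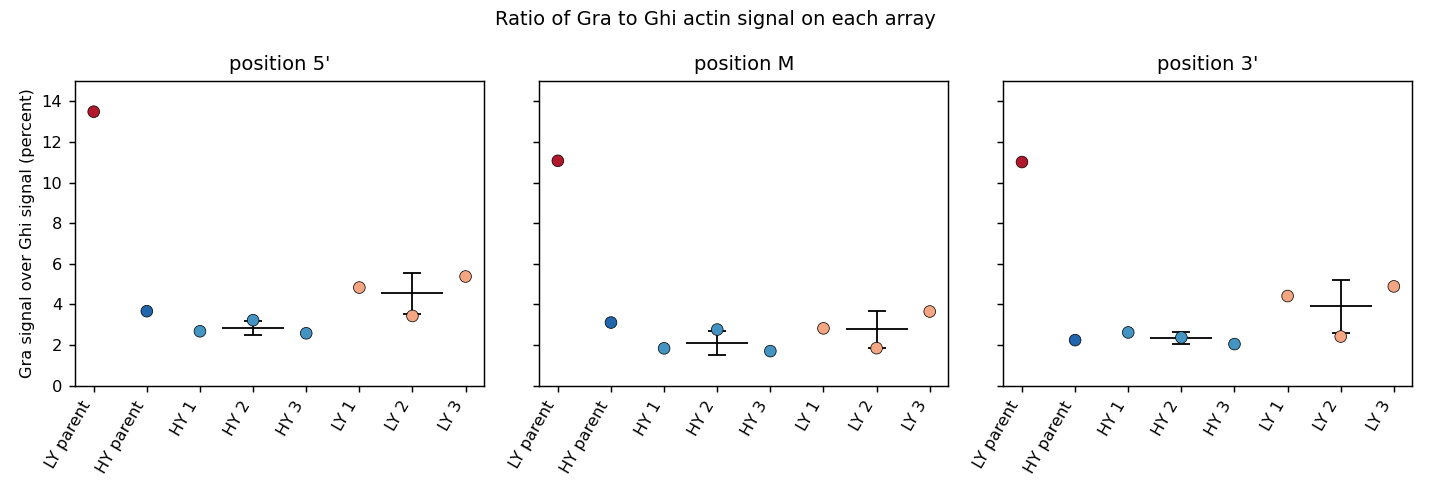
Gra actin signal as a percent of the Ghi actin signal at the same position on each of the 8 arrays (linear axis from 0, deposited signals); points are single arrays and black bars the mean ± SD of the 3 lines of a yield group. The low-yield parent stands at 13.5%, 11.1% and 11.01% (5′, M, 3′), and the 7 other arrays lie between 1.70% and 5.37%.

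Averaged over the 3 positions on the log2(signal + 16) scale, the Gra to Ghi ratio was -3.01 in the low-yield parent and -4.82 ± 0.40 in the lines (SD, n = 6), a difference of 1.81. The high-yield parent had -4.87, a difference of -0.04 from the lines. Over the planned scalings, pseudocounts and summaries the low-yield parent's difference stayed between 1.46 and 2.01, and between 1.72 and 1.93 when a line was left out. It lay above all 6 lines under each of the 7 scales and pseudocounts.

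Between the yield groups, the Gra actin sets were lower in the high-yield lines on the deposited values, and none passed the test. Gra 3′ averaged 128 ± 8.73 in high-yield and 198 ± 38.2 in low-yield lines (SD, n = 3 each), a log2 difference of -0.56 ± 0.44 (SE; limma adjusted p = 0.999). Gra 5′ averaged 25.9 ± 8.11 in high-yield and 37.9 ± 2.63 in low-yield lines, a log2 difference of -0.38 ± 0.36. Gra M averaged 171 ± 77.1 in high-yield and 218 ± 46.8 in low-yield lines, a log2 difference of -0.38 ± 0.48. The groups did not overlap for Gra 3′ and Gra 5′, with all high-yield lines below all low-yield lines, as for 2.35% of all tested probe sets (2.72% without overlap in either direction). They overlapped for both sets after quantile normalization, median centring or scaling to either kind of spike. With quantile normalization the log2 differences were -0.17 (3′), -0.11 (5′) and 0.02 (M), so that of Gra M changed sign.

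The Ghi sets lay closer between the yield groups on the deposited values. Ghi M averaged 7948 ± 1489 in high-yield and 8119 ± 1351 in low-yield lines, Ghi 3′ averaged 5500 ± 376 in high-yield and 5301 ± 1058 in low-yield lines, and Ghi 5′ averaged 925 ± 315 in high-yield and 866 ± 230 in low-yield lines (SD, n = 3 each). Their log2 differences were -0.04 ± 0.21, 0.07 ± 0.21 and 0.07 ± 0.39 (SE; limma adjusted p = 0.999 each), and all 3 turned sign under another scaling or without a line. Of the 6 actin sets, limma placed 0 past the adjusted threshold of 0.05 and 0 past 0.05 before adjustment; of all tested probe sets, 0% and 0.957% were past these. The median log2 difference was 0.07 for the 3 Ghi sets and -0.38 for the 3 Gra sets, beside -0.28 for all tested probe sets. Which species' sets lay closer depended on the scale. With quantile normalization the Ghi differences were 0.12 (M), 0.26 (3′) and 0.37 (5′), larger in size than those of the Gra sets. With median centring they were 0.25, 0.35 and 0.35, against -0.09 (M), -0.27 (3′) and -0.09 (5′) for the Gra sets.

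The Gra to Ghi ratio on the log2(signal + 16) scale, which a common scale moves little (-0.49 with hybridization spike and -0.44 with poly-A spike scaling), was lower in the high-yield lines by a log2 difference of -0.47 averaged over positions (-5.06 ± 0.21 in high-yield and -4.59 ± 0.44 in low-yield lines, SD, n = 3 each; exact permutation test, two-sided p = 0.3). By position the difference was -0.34 (M, exact p = 0.3), -0.62 (3′, exact p = 0.2) and -0.45 (5′, exact p = 0.3), and each adjusted p was 0.45 over 6 tests (exact permutation). With 3 lines against 3 the smallest p is 0.1. At the 5′ end the result turned on the pseudocount and the scaling. As a plain ratio of deposited signals the groups did not overlap (2.82% ± 0.35 in high-yield and 4.54% ± 1.00 in low-yield lines, SD, n = 3 each, exact permutation p = 0.1). With the pseudocount of 16 low-yield line 2 fell among the high-yield lines on the deposited values. The groups also overlapped after median centring or scaling to either kind of spike. With quantile normalization they did not overlap (highest high-yield line -4.33, lowest low-yield line -4.25, exact permutation p = 0.1). Low-yield line 2 had ratios among those of the high-yield lines at the middle and 3′ positions too, and without it the averaged difference was -0.72 (exact permutation p = 0.1); without low-yield line 3 it was -0.30 (exact permutation p = 0.5).

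The 5′ to 3′ ratio, read as a measure of how complete the labelled RNA was, placed the low-yield parent among the lines for Ghi actin, and for Gra actin its place turned on the pseudocount. For Ghi actin it was 14.8% in the low-yield parent and 18.9% in the high-yield parent, against 12.4%, 15.8% and 21.7% in high-yield lines 1, 2 and 3 and 15.7%, 17.4% and 15.5% in low-yield lines 1, 2 and 3. For Gra actin it was 18.2% in the low-yield parent and 30.9% in the high-yield parent, against 12.7%, 21.5% and 27.4% in high-yield lines 1, 2 and 3 and 17.2%, 24.6% and 17.1% in low-yield lines 1, 2 and 3. In these plain ratios the low-yield parent lay inside the range of the lines for both species' sets, and the high-yield parent was above all lines for the Gra sets. High-yield line 1 had the lowest plain ratio of the 8 arrays and high-yield line 3 the highest of the lines. On the log2(signal + 16) scale the Gra ratio of the low-yield parent, -2.30, was the lowest of the 8 arrays, below the -2.18 of high-yield line 1. It differed there by -0.42 from the mean of the lines (SD of the lines 0.30) and by -0.90 from the high-yield parent. With a pseudocount of 1 the difference from the lines was -0.12 and with 64 it was -0.72. Between the yield groups the log2 difference, with the pseudocount of 16, was 0.0002 for Ghi (exact permutation p = 1) and 0.18 for Gra (exact permutation p = 0.7). The spread of the Ghi ratio was 16.6% ± 4.72 in high-yield and 16.2% ± 1.00 in low-yield lines (SD, n = 3 each).

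**Figure D4:**
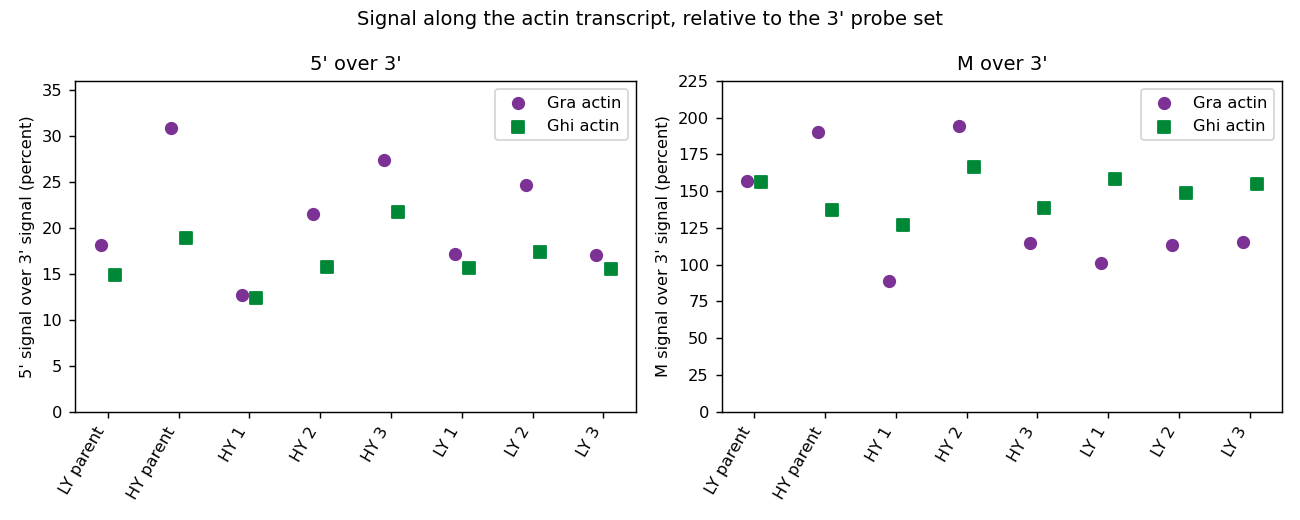
Signal of the 5′ set (left) and of the middle set (right) as a percent of the 3′ set of the same species' design, on each of the 8 arrays (linear axes from 0, deposited signals); circles are Gra and squares Ghi actin. The low-yield parent lies within the range of the lines in both panels (18.2% and 14.8% at 5′, 157% and 156% at M, for Gra and Ghi).

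The middle to 3′ ratio of Ghi actin was 156% in the low-yield parent, 137% in the high-yield parent and between 127% and 167% over the lines. For Gra actin it was 157% in the low-yield parent, 190% in the high-yield parent and between 88.9% and 194% over the lines, with high-yield line 2 at 194% and the other lines at 116% or below. The suffixes of these Gra sets differ (_s_at at the middle, _x_at at the 3′ end). Taken over the 3′ and 5′ positions alone, where both species' sets carry _x_at, the low-yield parent's Gra to Ghi ratio was above the lines by a log2 difference of 1.65, against 1.81 over all 3 positions.

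Among the other cotton controls on the array were ss1 and the ubiquitin control ubq11. Of 6 Gra sets for ss1 and ubq11, 3 passed the filter and 0 were 2-fold higher in the low-yield parent, with log2 differences from the lines between -0.01 and 0.36. Their signals were 0.3 to 28.4 over all arrays, around or below the pseudocount of 16, so this scale could hardly show a 2-fold difference in them: Gra ubq11 M was 1.53-fold the lines in deposited signal and 0.36 on the log2 scale. They therefore say little beside the Gra actin sets. The 5 Ghi sets, at 232 to 4276, had differences between -0.60 and 0.42. Beyond the controls, 4.2% of the 1358 tested probe sets whose identifiers start with Gra were at least 2-fold above the lines in the low-yield parent, and 3.06% of the 7036 whose identifiers start with Ghi (8.47% and 5.24% with quantile normalization).

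The 5′ to 3′ ratio of actin was compared with those of the other controls, and the levels of actin with the array medians. Over the 6 lines, the Ghi actin ratio had a Pearson r of 0.25 with that of ss1 (exact permutation p = 0.631, Spearman rho = 0.20, exact permutation p = 0.714) and of 0.08 with that of ubq11 (exact permutation p = 0.928, rho = 0.26, exact permutation p = 0.658). The mean log2 level of Ghi actin had r = 0.31 with the log2 array median (exact permutation p = 0.549, rho = 0.26, exact permutation p = 0.658), and that of Gra actin r = 0.31 (exact permutation p = 0.513, rho = 0.14, exact permutation p = 0.803). All adjusted p were at least 0.94 over 8 relations (exact permutation), and without the 2 lines farthest from the middle r was -0.18, -0.69, 0.71 and 0.97 in that order, over 4 lines each. For ss1 the ratio was 34.5% in the low-yield parent, 21.1% in the high-yield parent and between 10.8% and 42.8% over the lines. For ubq11 it was 58.4% in the low-yield parent, 48.4% in the high-yield parent and between 26.6% and 65.8% over the lines. In both controls high-yield line 1 was the lowest array and high-yield line 3 the next lowest, while high-yield line 2 was high (40.8% for ss1, 65.8% for ubq11). The high-yield and low-yield lines averaged 23.4% and 34.1% for ss1 (exact permutation p = 0.3). For ubq11 they averaged 41.2% and 48.7% (exact permutation p = 0.6). The actin ratios of the yield groups were thus closer than those of these controls.

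Among 6150 other probe sets with a signal above the median and at least a 2-fold range, the pattern most like that of Gra M over the 8 arrays was that of a set called W here, in place of its array identifier, which no table pairs with a gene (Pearson r = 0.97 over 8 arrays, 0.93 over the 6 lines). Its signal was 174 and 98.3 in the low-yield and high-yield parents and 48.1 to 92.0 over the lines. Next came set X (r = 0.97 over 8 arrays, 0.96 over the lines), with 5472 and 3994 in the low-yield and high-yield parents and 2646 to 3539 over the lines. The most opposite patterns were those of sets Y and Z. Set Y (r = -0.94 over 8 arrays, -0.91 over the lines) had 7.80 and 117 in the low-yield and high-yield parents and 57.7 to 132 over the lines. Set Z (r = -0.93 over 8 arrays, -0.64 over the lines) had 128 and 302 in the low-yield and high-yield parents and 266 to 416 over the lines. The Gra 5′ and 3′ actin sets had r = 0.93 and 0.90 with Gra M over the 8 arrays and 0.61 and 0.63 over the 6 lines, and the Ghi actin sets had r between -0.07 and 0.38 over the 8 arrays. These coefficients were picked as extremes of many, share the low-yield parent's array as their farthest point, and are given as a description.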

How the data were processed

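Fibre RNA of 8 samples (1 for each parent or line) was measured on 1 Affymetrix cotton array each. Per the submitters' processing notes, which list GCOS and MAS5, the authors deposited linear intensities, already summarised by probe set; their scaling target is not given in the sources used here. All 8 columns were matched by sample identifier, and any 2 arrays shared at most 1.20% identical values. Cotton probe sets (24046, with 17 actin, ss1 and ubq11 controls) were transformed as log2(signal + 16), so fold changes of low signals are understated. The 40% with the lowest mean were left out, leaving 14423. High-yield and low-yield lines were compared in limma 3.58.1 (R 4.3.3) with lmFit and trended eBayes, two-sided, with Benjamini-Hochberg adjustment over all tested probe sets and a threshold of 0.05. The fit was also run on simulated data with independent noise and no shift between arrays. That run cannot show how the fit handles arrays of unequal brightness. Single ratios were compared by exact permutation. The number of arrays limits the precision, and p-values measure the joint spread of lines and arrays.

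Members, lists, tests and alternatives were chosen with earlier results of these data known. All 6 actin sets are named; like and opposite probe sets are the 2 highest and 2 lowest r with Gra M. Alternatives were pseudocounts of 1 and 64, quantile normalization, median centring, scaling to 27 hybridization or 36 poly-A spikes (the tryptophan controls, at 0.3 to 6.2, left out), other filters, no trend, leaving out lines, a replicate block and all 8 arrays. Equal line numbers were not treated as a pairing in the main fit. The deviations of lines 1, 2 and 3 from their group means correlated at -0.29, 0.21 and 0.58 between the groups. With 3 lines in a group these deviations are tied to each other, so the values cannot decide whether the numbers mark pairs. Probe sequences were not used here.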

Additional observations from a re-analysis of the deposited data

Results flagged for a closer look

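For each of the 6 actin sets and 7 actin ratios, the 6 lines were examined for 1 line far from the other 5, and 1 of these 13 groups had one, where chance marks about 1 in 20. The Gra actin middle signal was 194.1% of the 3′ signal in high-yield line 2 and 88.9% to 116% in the other 5 lines. In that line the Gra middle set had a signal of 260, and the Gra 3′ set 134. The high-yield parent had a similar value, 190%.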

How the results depend on the processing

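Each alternative below was planned. Between the yield groups limma called 0 probe sets under each of them except with the line number as a replicate block, where it called 8 (the lowest adjusted p was 0.0086, and 0.118 to 1 elsewhere); 0 of the 6 actin sets was among those passing, and the cause was not tested. The unadjusted count, 138, was 3880 without low-yield line 3, 670 without high-yield line 2 and 12 without low-yield line 1. Of the log2 differences of high-yield minus low-yield lines, those of Gra 3′ and 5′ kept their sign under every alternative run. That of Gra M was 0.025 with quantile normalization. The Ghi differences, close to 0 on the deposited values, changed in sign and size. Ghi 3′ was -0.094 with poly-A scaling, 0.26 with quantile normalization, 0.35 with median centring and -0.023 to 0.23 leaving out a line. Ghi 5′ was -0.091 with poly-A scaling, 0.37 with quantile normalization, 0.35 with median centring and -0.18 to 0.31 leaving out a line. Ghi M was 0.12 with quantile normalization, 0.25 with median centring, 0.067 with hybridization spike scaling and -0.17 to 0.11 leaving out a line. The Ghi 5′ to 3′ ratio, at 0.0002, was -0.0013 with a pseudocount of 64 and with hybridization spike scaling, and -0.21 to 0.19 leaving out a line. The averaged Gra to Ghi ratio kept its sign, at -0.62 to -0.33 (-0.72 to -0.30 leaving out a line). Depth is not given by arrays; Gra 5′, at 16.8 to 43.9 outside the low-yield parent, is close to the pseudocount and its size is the least certain.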
